A study of Mus musculus with 12 samples.

Results

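Active line 2 is 1 of 6 mouse cell lines derived from tumours, and its 2 arrays were set against the 10 arrays of the 5 other lines. The members are the 2 arrays whose titles name constitutively active STAT3 and cell line 2, out of 12 arrays in all. The 5 other lines are 3 with wild-type STAT3 (wild-type lines 1, 2 and 3) and 2 more with constitutively active STAT3 (active lines 1 and 3). Every line was untreated, grown in the same RPMI medium with foetal calf serum, and measured on 2 Illumina bead arrays. The labels give neither the tissue of the tumours, nor the alleles behind each genotype, nor whether each array of a pair had a culture of its own, so that p-values at array level measure only the spread between these arrays. Each line stands for itself alone, so a difference of active line 2 is a difference of 1 line.

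STAT3 is a transcription factor that cytokine receptors activate through JAK kinases. Active STAT3 enters the nucleus, binds short palindromic DNA sites and induces, among others, Socs3, whose product switches the same receptors off. Interferons induce antiviral genes, many of which carry a different site in front of them, the interferon-stimulated response element. Tumour lines also differ from one another in many genes whatever their genotype, so a single line is described here against each of the others.

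Signals are normalised log2 bead intensities, so a difference of 1 is a 2-fold change, and values near 5 are close to background. A gene was tested when a probe of it was detected, with a deposited detection fraction above 0.99, on both arrays of at least 1 line, which gave 7929 genes. Of these, 7269 were detected on both arrays of active line 2, 210 on 1 and 450 on neither. The 2 arrays detected 25.7% and 26.0% of the 46632 probes, inside the 23.6% to 27.4% of the 12 arrays. Krt8 and Krt18, keratins of simple epithelia, were bright in active line 2 (13.77 and 13.65 for Krt8, 13.74 and 13.40 for Krt18). Of 22 epithelial junction and keratin genes on the array, 16 were detected on both arrays of active line 2 and 6 on neither. For 21 basal and myoepithelial genes these counts were 9 and 12, and for 24 luminal mammary and milk genes 14 and 10. Of 12 leukocyte markers on the array 11 were undetected on both of its arrays, as were 9 of 11 endothelial, 7 of 7 adipocyte and 17 of 24 mesenchymal and fibroblast markers. Cd14 was the detected leukocyte marker and Flt1 and Kdr the detected endothelial ones.

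Across the 7929 genes active line 2 correlated best with wild-type line 3 (Pearson's r = 0.984) and then with active line 1 (0.975), and least with active line 3 (0.945). Wild-type lines 1 and 2 lay between, at 0.955 and 0.959. The same order came from counts of genes that differed by 2-fold or more and passed the array-level test (limma, adjusted p under 0.05). There were 158 of them against wild-type line 3 (1.99%) and 369 against active line 1 (4.65%). Wild-type line 2 gave 561 (7.08%), wild-type line 1 gave 569 (7.18%) and active line 3 gave 784 (9.89%). The line with the most similar profile therefore carried the other genotype. The correlations run across genes, which are not independent replicates, and are given as a description.

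With the 2 arrays averaged and the line as the replicate, no gene passed the test of active line 2 against the 5 other lines (limma, two-sided, Benjamini-Hochberg at 0.05; 0 of 7929, 0%). At an unadjusted p under 0.05 there were 279 (3.52%). In that test active line 2 is assumed to vary like the other lines, and an exact permutation of 1 line against 5 cannot go below p = 0.167. Run on each other line in turn, the line-level test called 4 genes in wild-type line 1, 35 in wild-type line 2 and 0 in wild-type line 3. It called 1 in active line 1 and 107 in active line 3. A second test asked whether active line 2 lay above, or below, each of the 5 other lines by more than the spread between arrays of a line, with the largest of the 5 p-values as the p of the gene. It called 55 genes higher (0.694%) and 19 lower (0.240%). That spread may be technical. Below, a difference, fold or SE of active line 2 is taken from the mean of the 5 other lines. An adjusted p beside it comes from this second test and does not test that mean difference. Where the 2 arrays are set against each other, the p is that of their comparison. Of the 55 genes 3 (Galnt15, Slc6a15 and Catsperd) passed the detection filter through active line 2 alone, so their p-values support nothing, and 52 passed through another line too. Of the 19 lower genes 12 were detected on all 12 arrays. Lower genes undetected in active line 2 passed only through other lines, so their p-values add no support either. The same test run on each other line called 9 to 485 genes higher and 6 to 447 lower, so the counts of active line 2 lay within the range of the lines. Without 1 array the total of 74 went as low as 36 (without array 1 of wild-type line 3); it was 44 without array 2 of that line, 49 and 48 without array 1 or 2 of active line 1, and 45 and 42 without array 1 or 2 of active line 2. Of the 74 calls, 24 held in all 12 fits that each left out 1 array, 15 of them higher and 9 lower. As a plain count, both arrays of active line 2 lay above all 10 others for 549 genes (6.92%) and below them for 650 (8.20%).

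Stat3 itself did not set active line 2 apart. Its log2 signal was 12.20 on array 1 and 12.34 on array 2, against 11.35 to 12.83 on the 10 other arrays (median 12.69). The 2 arrays sat inside the range of the others, and the gene did not pass the array-level test (limma adjusted p = 1). The difference was -0.18 ± 0.51 (SE). Against active lines 1 and 3 alone its sign turned, to 0.15. An array probe of Stat3 does not report the activity of its protein. Tns4, which encodes tensin 4, a focal adhesion protein also called Cten, was at 8.64 on array 1 and 7.93 on array 2, against 4.80 to 12.48 on the 10 other arrays (median 6.09). Active line 2 stood above the 3 wild-type lines and active line 1 and far below active line 3, whose mean was 12.45, so the difference from active lines 1 and 3 alone had the other sign (-1.32).

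Socs3, the feedback inhibitor of JAK-STAT receptors, was at 9.41 on array 1 and 9.26 on array 2, against 7.37 to 8.88 on the 10 other arrays (median 8.39). Both arrays lay above every other array, and the gene was 2.11-fold brighter than the mean of the other lines (log2 difference 1.07 ± 0.49). It passed the array-level test against every line (limma adjusted p = 0.0492). That call held in 2 of 12 fits that left out 1 array, with adjusted p-values up to 0.314. The promoter of Socs3 is shown because it holds a STAT palindrome, TTCNNNGAA, in the 300 bases around the start site that RefSeq gives on GRCm38.p6 (250 before, 50 after), at chr11:117969317-117969616 (minus strand), with the match in capitals.
Socs3: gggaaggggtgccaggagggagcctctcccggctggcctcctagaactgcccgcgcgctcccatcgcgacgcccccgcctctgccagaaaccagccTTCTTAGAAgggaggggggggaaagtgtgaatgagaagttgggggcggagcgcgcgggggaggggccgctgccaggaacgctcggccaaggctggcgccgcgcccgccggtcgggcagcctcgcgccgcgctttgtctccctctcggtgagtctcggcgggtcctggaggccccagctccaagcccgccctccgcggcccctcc
Such a match was present in 8.39% of the 6474 tested genes with a promoter in the table and in 3 of 41 (7.32%) of the genes higher than every line, so the share of those genes was near that of all genes. The motif reads alike on both strands. Of 23 STAT3 target genes tested, 16 were higher in active line 2, beside 47.2% of all genes. Their median log2 difference was 0.17 against -0.02 over all genes tested. The arrays were unequal here, with medians of 0.26 on array 1 and 0.08 on array 2. On array 2, 6 members were higher than on array 1, beside 3502 of all 7929 genes tested. Socs3 was the member past the array-level test. Both arrays lay above all others for 3 members and below for 1, beside 6.92% and 8.20% of all genes. Cebpb, a transcription factor of the acute phase response, was at 13.93 and 13.73 against 13.14 to 13.63. Birc5, which encodes the mitotic protein survivin, was at 11.55 and 11.89 against 12.001 to 12.38. Neither Cebpb nor Birc5 passed (limma adjusted p = 0.564 and 0.734).

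The genes farthest above every other line included 3 that were undetected elsewhere. Galnt15, which encodes an enzyme that starts mucin-type O-glycosylation, was at 7.30 on array 1 and 7.16 on array 2, against 4.85 to 5.57 on the 10 other arrays (median 5.25). It was detected on both arrays of active line 2 and on none of the 10 others, and was at least 2.05-fold brighter there. The bound sets active line 2 against the dimmest signal that counted as detected. Slc6a15, a transporter of neutral amino acids, was at 7.39 and 6.83 against 4.70 to 5.81, at least 1.89-fold brighter. Catsperd, a subunit of the sperm calcium channel, was at 6.78 and 6.53 against 4.68 to 5.73, at least 1.37-fold brighter. The 3 genes were tested because active line 2 detected them, so their levels are a description with no test. In all, 10 genes were detected on both arrays of active line 2 and on no other array. Among the other 7 were Ubxn2b (6.38 and 6.75 against 4.92 to 5.94) and Map3k6, a kinase of the MAP kinase cascade (6.499 and 6.405 against 5.27 to 6.03).

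Other genes highest in active line 2 included secreted proteins and receptors. Sftpd, which encodes surfactant protein D, a collectin that binds microbial sugars, was at 12.62 on array 1 and 12.42 on array 2, against 10.07 to 11.23 on the 10 other arrays (median 10.72). It was 3.51-fold brighter than the mean of the other lines (adjusted p = 0.0045), a call lost without array 1 of wild-type line 3 (adjusted p = 0.0519). Il1rl2, the receptor for interleukin 36, was at 9.56 and 9.81 against 6.61 to 8.71. Its log2 difference was 1.64 ± 0.76, and it passed the array-level test (adjusted p = 0.0018). Rassf4, a Ras-association protein, was at 12.66 and 12.30. The other lines were split for this gene, from 5.63 to 11.57, so its mean difference of 3.09 is far larger than its gap of 0.94 to the nearest line (adjusted p = 0.00395). Pdgfd, a ligand of platelet-derived growth factor receptors, was at 8.73 and 8.75 against 5.12 to 7.74 by its brightest probe. Its probes disagreed, with differences of -0.15 and 2.38, and with the mean of the probes it did not pass (adjusted p = 0.141). Liph, a lipase that makes lysophosphatidic acid, was at 7.96 and 8.18 against 6.09 to 7.24. Its call held in 6 of 12 fits that left out 1 array.

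Nrde2, a nuclear factor of RNA surveillance, was at 10.33 and 10.42 against 8.79 to 9.31, 2.48-fold above the mean of the other lines (adjusted p = 1.11e-04). The predicted gene Gm1976 was at 9.01 and 8.72 against 6.74 to 7.73 (adjusted p = 0.0106, held in 9 of 12 fits). Bik, a pro-apoptotic BH3-only protein, was at 9.31 and 9.46 against 7.48 to 8.72, with a log2 difference of 1.17 (adjusted p = 0.00436), and was the member of 17 tested apoptosis regulators past the test. Nav1, a microtubule-binding neuron navigator, was at 10.71 and 10.88 against 9.30 to 10.04 (adjusted p = 0.00204). Igf1r, the receptor of insulin-like growth factors, was at 10.04 and 10.09 against 8.67 to 9.57 (adjusted p = 0.0388, held in 4 of 12 fits). The basal epithelial galectin gene Lgals7 was at 11.02 and 10.89 against 6.07 to 10.31 (adjusted p = 0.0102), held in 10 of 12 fits.

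**Figure D1:**
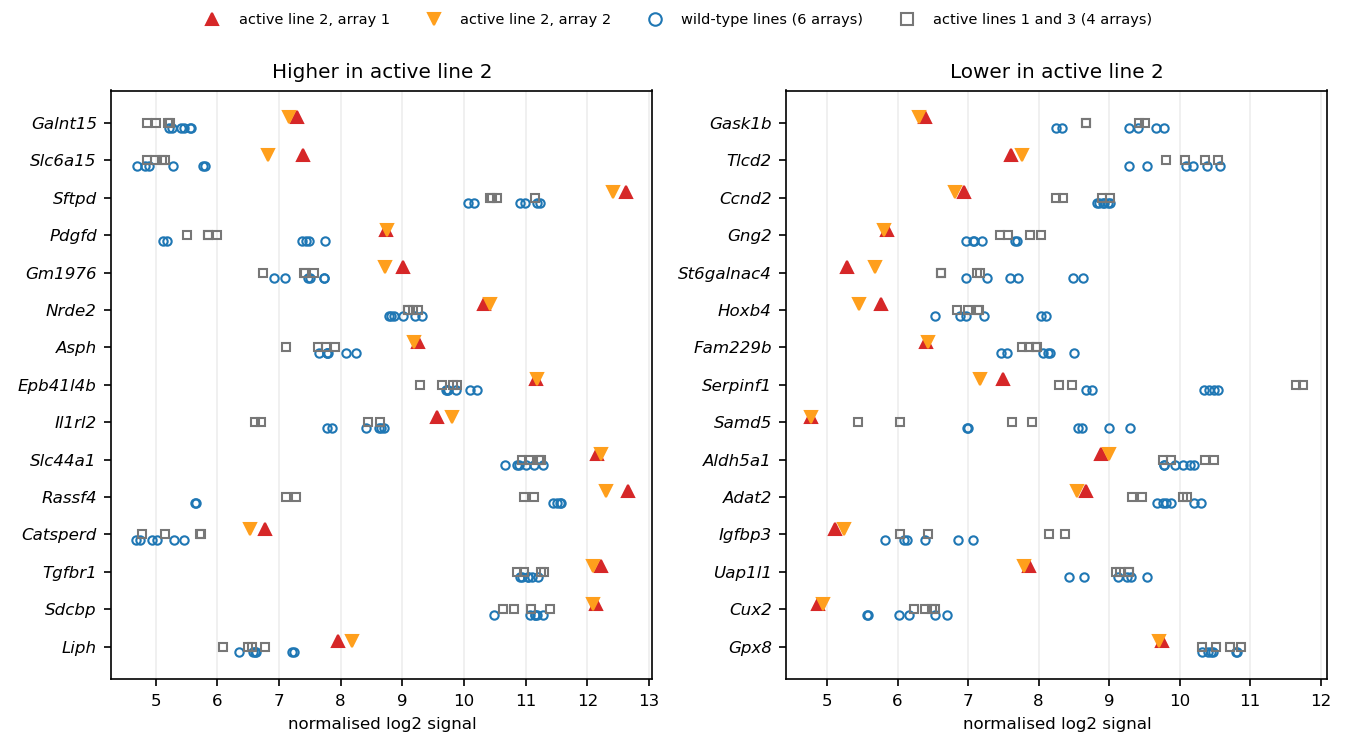
Normalised log2 signal (x axis) of the 15 genes farthest above (left) and the 15 farthest below (right) every other line among those past the array-level test, 1 symbol per array. The 2 triangles of active line 2 lie outside all 10 other arrays for each gene plotted, and in Rassf4 the other lines are themselves widely spread.

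Many of the higher genes were neighbours. In RefSeq gene order (GRCm38.p6), 129 consecutive tested genes at the start of chromosome 4, from Cd99 to Dmac1, had a median log2 difference of 0.57 (1.49-fold). In this stretch 120 genes were higher and 9 lower, and both arrays lay above all 10 others for 80, beside 6.92% of all genes. The stretch was found by its medians over runs of 15 neighbours above 0.3, so these counts describe it and test nothing. It held 24 of the 55 genes called higher than every line (43.6%), which is 18.6% of its own genes against 0.397% of the 7800 genes outside it. The 2 arrays had nearly the same median in the stretch, 0.59 and 0.61. In the 352 tested genes that follow on the chromosome the median was -0.06, 152 were higher, and none was past the array-level test in either direction. They include a stretch of 20 genes from Eif4g3 to Necap2 that ran down, with a median of -0.30. The shift of the first stretch was spread over its genes: its quartiles were 0.32 and 0.75. The other 5 lines, each against the 4 lines that are neither it nor active line 2, had medians of -0.13 to 0.16 over the same genes.

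The called genes of the stretch have various functions. The largest difference was that of Asph, which encodes aspartate beta-hydroxylase, at 9.26 on array 1 and 9.19 on array 2, against 7.11 to 8.24 on the 10 other arrays (median 7.78) (2.73-fold, adjusted p = 0.00436). Without array 1 of wild-type line 3 its adjusted p was 0.0555, and with the mean of its 3 probes 0.0724. Tgfbr1, the type I receptor of TGF-beta, was at 12.22 and 12.09 against 10.87 to 11.29 (2.14-fold, adjusted p = 0.0018). Slc44a1, a choline transporter, was at 12.15 and 12.22 against 10.67 to 11.28 (2.23-fold, adjusted p = 0.00121). Epb41l4b, a FERM-domain protein of the cell cortex, was at 11.16 and 11.18 against 9.28 to 10.21 (2.59-fold, adjusted p = 0.0018). Zcchc7, a factor of nuclear RNA degradation, was at 9.39 and 9.46 against 8.42 to 8.75 (1.8-fold, adjusted p = 0.00188). Mms22l, which acts in repair of stalled replication forks, was at 8.74 and 8.75 against 7.57 to 8.16 (2.02-fold, adjusted p = 0.00419).

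Over the 24 called genes of the stretch the differences ran from 1.51-fold to 2.73-fold (median 1.91-fold), and the 2 arrays differed by 0.01 to 0.22 on the log2 scale (median 0.07). Dctn3, a subunit of dynactin, was at 11.55 and 11.53 against 10.67 to 10.98 (1.62-fold, adjusted p = 0.00419). Rab2a, a small GTPase of the secretory pathway, was at 13.50 and 13.41 against 12.78 to 12.96 (1.52-fold, adjusted p = 0.00907, held in 8 of 12 fits that left out 1 array). Xpa, a nucleotide excision repair protein, was at 9.30 and 9.28 against 8.37 to 8.74, and Topors, a ubiquitin and SUMO ligase, at 10.68 and 10.64 against 9.63 to 10.17. The calls of Xpa and Topors held in 7 and 8 of 12 fits. Sdcbp, which encodes syntenin, was at 12.14 and 12.09 against 10.49 to 11.40 (adjusted p = 0.0348, held in 4 of 12 fits). Esrp1, a splicing factor of epithelial cells, was at 11.94 and 12.01 against 10.89 to 11.47 (adjusted p = 0.0289, held in 6 of 12 fits).

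**Figure D2:**
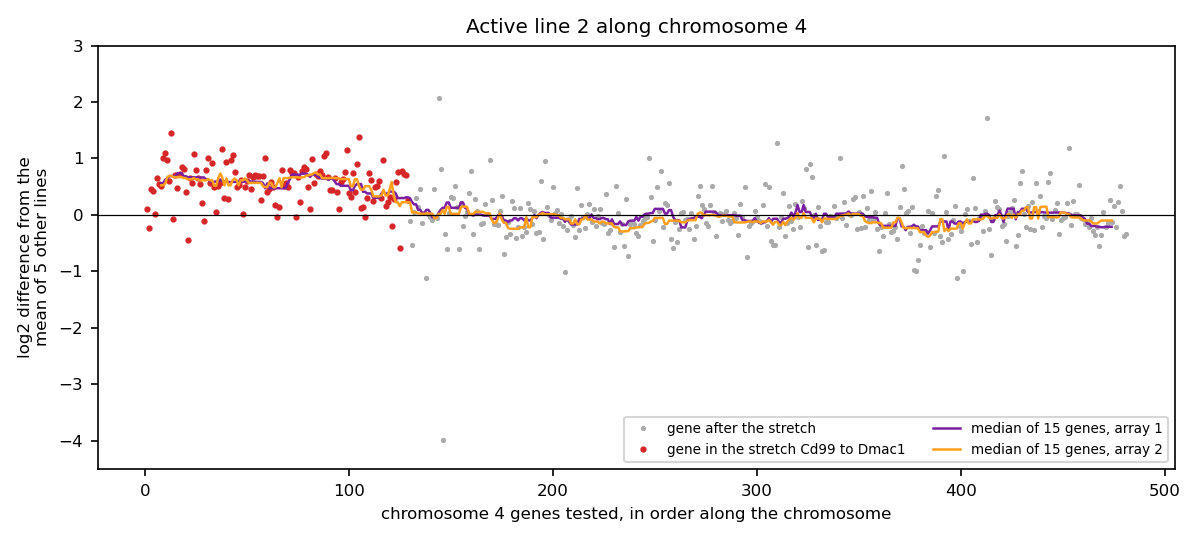
Log2 difference of active line 2 from the mean of the 5 other lines (y axis) for 481 tested genes of chromosome 4 in order along the chromosome (x axis, rank of the gene), with the median of 15 neighbours for each array as lines. Both lines lie mostly above 0 over the first 129 genes (medians 0.59 and 0.61) and around 0 after them, with a dip over 20 genes from Eif4g3 to Necap2 (medians -0.24 and -0.27).

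Long shifted stretches were not particular to this line. The longest in active line 1, built in the same way, held 273 genes (shifted down), and in the 4 other lines the longest held 27 to 46. In active line 2 there were 133 runs of 15 genes with a median above 0.3 and 56 below -0.3 out of 7643, and the other lines had 13 to 156 above and 30 to 263 below. The second stretch of active line 2 ran down, over 40 genes of chromosome 13 from H4c11 to Foxq1, with a median of -0.39. Aldh5a1 was the gene past the array-level test in it. The stretch holds part of the main histone gene cluster. Of 33 tested histone genes 25 were lower in active line 2 (median -0.38), beside 52.8% of all genes, both arrays lay below all others for 12, beside 8.20%, and none was past the array-level test. The 12 were 9 of 10 tested H2b genes and 3 of 7 H4 genes, while the 4 H3 genes were higher (0.07 to 0.24) and 11 H2a genes had a median of -0.09. With median scaling bright H2a genes fell, such as H2ac6 (0.003 to -0.33) and H2ac10 (-0.09 to -0.41). The dimmer H2ac8, H2ac18 and H2ac19 moved little (to 0.14, -0.46 and -0.19). The size of the H2a difference thus depends on the normalisation. H4c8 was at 7.86 and 7.25 against 8.05 to 9.54, and H2bc4 at 9.73 and 9.08 against 9.85 to 10.92. The arrays were unequal here, with medians of -0.29 on array 1 and -0.55 on array 2, and histone genes are so alike that probes of one may read another.

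Farther along chromosome 4, past the stretch, the genes of the Mtap and Cdkn2 locus differed widely among the lines. Mtap, which recycles a by-product of polyamine synthesis to methionine, stood at 10.87 and 11.07 in active line 2 against 4.61 to 10.99. Its mean in active line 3 was 4.63. Cdkn2a was detected on both arrays of active line 2, at 7.84 and 7.75 against 4.98 to 8.57 by its brightest probe. Its mean in active line 3 was 5.01, and its difference of 0.81 turned to -0.33 with the mean of its probes. Cdkn2b, an inhibitor of G1 kinases, was undetected in active line 2 at 5.22 and 4.96 against 4.99 to 10.99, as it was in active line 3. Active line 3 was thus close to background for each of these genes, and active line 2 for Cdkn2b.

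The genes farthest below every other line were led by Gask1b, which encodes a Golgi-associated kinase-like protein. It was at 6.39 on array 1 and 6.30 on array 2, against 8.25 to 9.78 on the 10 other arrays (median 9.35). Its log2 difference was -2.75 ± 0.55, and it passed the array-level test (limma adjusted p = 1.46e-06). Tlcd2, a membrane protein with a TLC domain, was at 7.60 and 7.76 against 9.28 to 10.57 (log2 difference -2.40, adjusted p = 6.75e-05), and its 3 probes all pointed down. Ccnd2, which encodes cyclin D2, an activator of the G1 kinases, was at 6.94 on array 1 and 6.81 on array 2, against 8.24 to 9.02 on the 10 other arrays (median 8.90). Its difference was -1.92 ± 0.29, and it was the one of 20 tested G1 cell cycle genes past the array-level test (adjusted p = 2.76e-05). The related Ccnd1 was bright and inside the range of the other arrays (14.52 and 14.64 against 14.39 to 14.83), as was Ccnd3 (7.44 and 7.28 against 6.88 to 7.56). Serpinf1, which encodes the secreted pigment epithelium-derived factor, was at 7.49 and 7.16 against 8.28 to 11.75 (log2 difference -2.61, adjusted p = 0.00188). Adat2, a subunit of the tRNA adenosine deaminase, was at 8.67 and 8.54 against 9.33 to 10.31 (adjusted p = 0.00188). Fam229b was at 6.41 and 6.43 against 7.47 to 8.50 (adjusted p = 0.00224). Aldh5a1, a mitochondrial enzyme of GABA breakdown, was at 8.88 and 8.997 against 9.77 to 10.49 by its brightest probe, but its 3 probes ranged from -1.10 to 0.12, and their mean did not pass (adjusted p = 0.250).

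A group of genes was undetected on both arrays of active line 2 and detected on all 10 others, 5 in number. They passed the detection filter only through the other lines, where they are high. Their levels are therefore a description, and the p-values and left-out fits given with them add no support. Gng2, a gamma subunit of heterotrimeric G proteins, was at 5.85 and 5.80 against 6.96 to 8.03, at least 2.52-fold lower (adjusted p = 0.00419). St6galnac4, a sialyltransferase, was at 5.28 and 5.68 against 6.61 to 8.63, at least 2.44-fold lower (adjusted p = 0.00212). Hoxb4, a homeobox transcription factor, was at 5.76 and 5.45 against 6.53 to 8.10, at least 2.08-fold lower (adjusted p = 0.00519, held in 10 of 12 fits that left out 1 array). Mipol1 and Dnajc18, the remaining members, did not pass (adjusted p = 0.526 and 0.622). Among genes that some other arrays also missed, Samd5 was at 4.77 and 4.77 against 5.44 to 9.29 (adjusted p = 0.0235, held in 7 of 12 fits). Igfbp3, whose product binds IGF ligands in the medium, was at 5.11 and 5.24 against 5.82 to 8.37 (adjusted p = 0.0431, held in 2 of 12 fits). Igfbp3 was detected on 7 of the other arrays and Samd5 on 8. Both lay near background in active line 2 and passed the filter through other lines, so the same limit holds.

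The 2 arrays of active line 2 disagreed in more genes than those of any other line. Between them 74 genes differed past the test (limma, with the array spread of the 5 other lines as the residual), 25 with array 1 higher (0.315%) and 49 with array 2 higher (0.618%). The same test found 0 genes in 4 of the other lines and 1 in active line 1. Differences above 2-fold numbered 41 here and 1 to 11 in the other lines, although the median absolute difference over all genes, 0.12, was like theirs (0.09 to 0.13). The count of 74 fell to 48 without either array of wild-type line 3, and 44 of the calls held in all 10 fits that each left out 1 array of another line. Leaving out array 1 or array 2 of another line removes the same pair from the residual and gives the same result. The 10 fits, here and below, are therefore 5 distinct ones, 1 for each other line. The labels name no difference between the 2 arrays of active line 2, and their raw median intensities were 86.3 and 86.5. None of the 74 was among the genes called higher or lower than every line, beside 0.694% and 0.240% of all genes. With shares so small, few or none would be shared anyway. It is also partly built in, since a large difference between these arrays widens the spread that the test against every line uses.

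Array 2 was brighter for the listed interferon-induced antiviral genes. Of 17 tested interferon-stimulated genes all 17 were higher on array 2, and 14 passed the test. Their median difference from the mean of the other lines was -0.15 on array 1 and 1.39 on array 2. On array 2, 9 of the 17 lay above all 10 arrays of the other lines, and on array 1 none did. Over all 7929 genes tested 881 did so on array 2 and 941 on array 1. Irf7, a transcription factor that drives interferon production, was at 6.55 and 8.88 against 5.90 to 8.07 on the other arrays (5.03-fold between the arrays, adjusted p = 2.49e-04). Bst2, which encodes tetherin, a protein that holds budding viruses at the cell surface, was at 11.19 and 12.98 against 8.80 to 12.71 (3.47-fold, adjusted p = 2.24e-04). Oas1g, an oligoadenylate synthetase that the list does not hold, was at 8.62 and 11.02 against 6.59 to 11.26 (5.29-fold, adjusted p = 1.63e-04). Oasl2, a relative of it, was at 5.04 and 7.30 and detected on array 2 only (adjusted p = 0.00528). In each of the 4 genes array 1 sat within the range of the other arrays, while array 2 lay above it for Irf7, Bst2 and Oasl2 and inside it for Oas1g. Parp12, an interferon-induced gene that the list does not hold, went the other way, at 7.14 and 4.90 against 5.13 to 8.07. It was 4.72-fold brighter on array 1, with array 2 close to background, and did not pass the test between the arrays (adjusted p = 0.753).

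The largest difference between the arrays was that of Apol9b, an apolipoprotein L gene, at 6.81 and 9.74 against 4.80 to 9.26 (7.62-fold, adjusted p = 5.72e-05). Apol9a, at 8.12 and 10.82, is nearly identical to it, so the probes of the pair may share transcripts. Ifi27l2a, an interferon-induced mitochondrial protein, was at 6.65 and 9.49 (7.14-fold, adjusted p = 0.0029). Dhx58, a sensor of viral RNA, was at 7.16 and 8.96 (3.49-fold, adjusted p = 3.51e-04), and Lgals3bp, a secreted galectin-binding glycoprotein, at 7.81 and 10.12 (4.97-fold, adjusted p = 0.0029). The interferon-induced GTPases Gbp3 (9.87 and 11.62) and Igtp (8.27 and 9.92) and the immunoproteasome subunit Psmb8 (9.84 and 11.11) also passed (adjusted p = 0.00242, 0.00137 and 0.00174). Of 15 tested genes of MHC and antigen processing 14 were higher on array 2, with Psmb8 past the test. Over all genes tested 3502 of 7929 were higher on array 2.

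**Figure D3:**
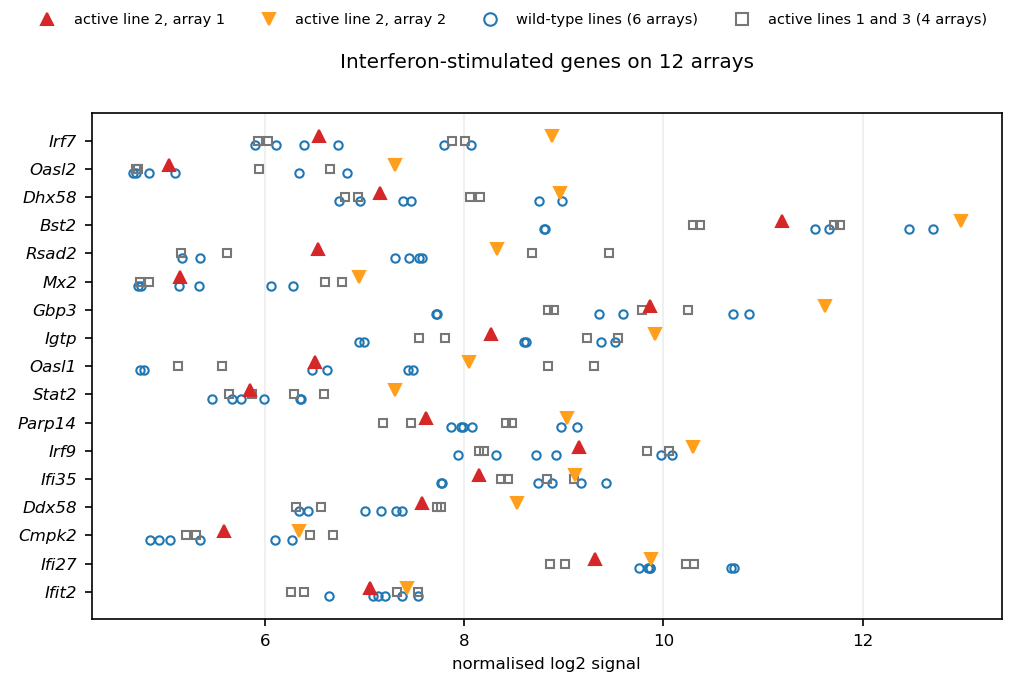
Normalised log2 signal (x axis) of the 17 tested interferon-stimulated genes on 12 arrays, 1 symbol per array, ordered by the difference between the 2 arrays of active line 2. Array 2 lies to the right of array 1 for every gene plotted, and the distance is largest for Irf7 (5.03-fold) and smallest for Ifit2 (1.29-fold).

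Promoters of these genes are shown because many hold the interferon-stimulated response element. The motif searched was GAAANNGAAA on either strand, which reads TTTCNNTTTC on the other strand, in the same 300-base windows from RefSeq (GRCm38.p6), and a gene counted once when any of its windows held it. It was present in 18 of 38 genes with array 2 higher (47.4%), in 0 of 17 with array 1 higher, and in 228 of 6474 tested genes (3.52%). Among genes called higher than every line, 1 of 41 held it. The 3 promoters below belong to the genes with the largest array differences that held it, leaving out Apol9a. Capitals mark the matches, 2 in each, which overlap. Apol9b is at chr15:77728822-77729121 (plus strand), Oas1g at chr5:120887564-120887863 (minus strand) and Bst2 at chr8:71537423-71537722 (minus strand).
Apol9b: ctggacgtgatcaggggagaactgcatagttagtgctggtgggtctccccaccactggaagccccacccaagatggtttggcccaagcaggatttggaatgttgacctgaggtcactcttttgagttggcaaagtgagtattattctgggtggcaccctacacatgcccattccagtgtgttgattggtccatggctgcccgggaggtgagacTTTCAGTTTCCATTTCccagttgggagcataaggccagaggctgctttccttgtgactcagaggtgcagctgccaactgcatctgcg
Oas1g: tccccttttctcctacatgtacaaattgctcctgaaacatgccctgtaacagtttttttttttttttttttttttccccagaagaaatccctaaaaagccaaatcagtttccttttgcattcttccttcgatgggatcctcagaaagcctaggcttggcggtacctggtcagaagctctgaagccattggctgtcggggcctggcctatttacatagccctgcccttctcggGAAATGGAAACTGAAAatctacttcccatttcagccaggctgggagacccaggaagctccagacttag
Bst2: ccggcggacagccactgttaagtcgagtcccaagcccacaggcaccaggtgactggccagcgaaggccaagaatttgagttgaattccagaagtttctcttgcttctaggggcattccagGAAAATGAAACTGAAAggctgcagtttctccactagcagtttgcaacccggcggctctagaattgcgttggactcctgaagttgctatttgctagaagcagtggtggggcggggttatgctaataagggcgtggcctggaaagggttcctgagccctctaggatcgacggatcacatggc
A match is a run of letters and no measure of binding.

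Genes brighter on array 1 included transporters of amino acids and stress-induced enzymes. Slc7a3, a transporter of cationic amino acids, was at 7.85 and 6.03 on arrays 1 and 2 against 4.997 to 7.81 (3.53-fold, adjusted p = 2.24e-04), and was detected on array 1 only. Of 12 tested genes of amino acid transport and serine synthesis 11 were higher on array 1 and 4 passed, the others being Slc6a9, a glycine transporter (9.62 and 8.64), Slc1a4, a transporter of small neutral amino acids (7.999 and 7.14), and Mthfd2, an enzyme of mitochondrial folate metabolism (12.02 and 11.23). Over all genes tested 3502 of 7929 were higher on array 2, and 0.315% passed with array 1 higher. Of the 4 calls that of Slc7a3 held in all 10 fits that left out 1 array of another line, Slc6a9 in 6, and Slc1a4 and Mthfd2 in 2. Without any 1 array of wild-type line 1 or 3 Slc7a3 alone of the 4 passed. Chac1, a glutathione-degrading enzyme induced by amino acid shortage, was at 10.30 and 8.998 against 9.85 to 10.60 (2.47-fold, adjusted p = 5.80e-04), so that array 2 lay below every other array. Hmox1, the stress-induced heme oxygenase, was at 9.50 and 8.12 against 8.31 to 11.29 (adjusted p = 7.20e-04). Gsta3, a glutathione transferase, was at 10.13 and 8.55 against 8.95 to 11.70 (adjusted p = 0.0181). Of 24 tested glutathione and NRF2 target genes 23 were higher on array 1 and 2 passed.

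Of 12 tested basal and myoepithelial genes 8 were higher on array 1 and 4 on array 2, and Acta2 and Krt17 passed. Over all genes tested 3502 of 7929 were higher on array 2, so the direction count of this list was not far from that of all genes. With array 1 higher, 0.315% of all genes passed. Acta2, smooth muscle actin, was at 8.98 and 7.59 against 5.96 to 13.99 (adjusted p = 0.00225), but with the mean of its probes the difference of 0.43 did not pass (adjusted p = 0.290). Outside that list Acta1, skeletal muscle actin, was at 9.32 and 8.01 (adjusted p = 0.0226, held in 8 of 10 fits that left out 1 array of another line). Krt17, a keratin of basal cells, was at 10.99 and 9.57 (adjusted p = 0.0215). Tns4 differed as well, by 0.72 on the log2 scale (adjusted p = 0.0292, held in 6 of 10 fits). The mean of active line 2 for such genes therefore averages a pair of unequal values.

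Over all genes tested 47.2% were higher and 52.8% lower in active line 2, and both arrays lay below all others for 8.20%, which are the shares to set beside the counts of each list. Among the lists with at least 5 tested genes, p53 targets had the lowest median. Of 13 tested 11 were lower in active line 2, with a median of -0.51 against -0.02 over all genes, and none was past the array-level test. Ccng1, which encodes cyclin G1, was at 11.10 on array 1 and 11.35 on array 2, against 11.72 to 12.91 on the 10 other arrays (median 12.61). Both arrays lay below all others, with a difference of -1.26, and the gene missed the threshold of the array-level test (limma adjusted p = 0.0543). Mdm2, the ubiquitin ligase of p53, was at 12.05 and 11.93 against 12.08 to 12.83 and Phlda3, a p53-induced inhibitor of AKT, at 8.64 and 8.45 against 8.90 to 10.53 (adjusted p = 1 and 0.176). Of 22 proliferation genes 15 were lower (median -0.28), 6 with both arrays below all others and none past the test. Plk1, a mitotic kinase, was at 11.56 and 11.91 against 12.11 to 12.59, and Bub1b, a spindle checkpoint protein, at 7.78 and 8.29 against 8.32 to 9.04.

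Housekeeping complexes were slightly lower on both arrays. Of 22 proteasome genes 20 were lower (median -0.21), 7 of them with both arrays below all others. Psmc4, a subunit of its regulatory ring, was at 12.48 and 12.57 against 12.76 to 13.19. Of 28 ribosomal protein genes 22 were lower (median -0.21, 11 below all others), and of 29 oxidative phosphorylation genes 26 (median -0.13, 6 below all others). With median scaling the medians were -0.36 for the ribosomal and -0.21 for the oxidative phosphorylation genes. Rpl13a, of the large ribosomal subunit, was at 11.89 and 11.94 against 12.15 to 12.44, and Ndufs3, of respiratory complex I, at 11.29 and 11.44 against 11.52 to 11.85. Of 24 glutathione and NRF2 target genes 19 were lower (median -0.29), among them Gpx2, an epithelial glutathione peroxidase, at 13.68 and 13.38 against 13.89 to 14.56. None of these members passed the array-level test.

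In the other direction, 18 of 19 tested genes of ERBB receptors, their ligands and feedback were higher (median 0.27), and 15 of 16 AP-1 and immediate early genes (median 0.15), with none past the test in either list, beside 47.2% of all genes higher. The ERBB list was alike on both arrays (0.28 and 0.30), whereas the AP-1 list had a median of 0.29 on array 1, with 15 of 16 higher, and 0.06 on array 2, with 11 of 16 higher. Spred1, an inhibitor of the RAS pathway, was at 11.67 and 11.78 against 10.74 to 11.60, and Egr3, an early growth response factor, at 11.20 and 10.96 against 9.56 to 10.77. Of 23 genes of cholesterol and fatty acid synthesis 17 were higher (median 0.14). Of single members of other lists, Il34, a ligand of the macrophage growth factor receptor, was at 7.22 and 6.88 against 5.12 to 6.32 (adjusted p = 0.0513) and Muc1, an epithelial mucin, at 9.16 and 9.05 against 5.63 to 8.46 (adjusted p = 0.228). Foxa1, a pioneer factor of luminal epithelia, was undetected at 4.91 and 4.81, as it was in active line 1, against up to 7.48 elsewhere. Over the 35 lists with at least 5 tested genes 18 had a median above 0 and 17 below or at it, and with median scaling 16 were above 0.

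**Figure D4:**
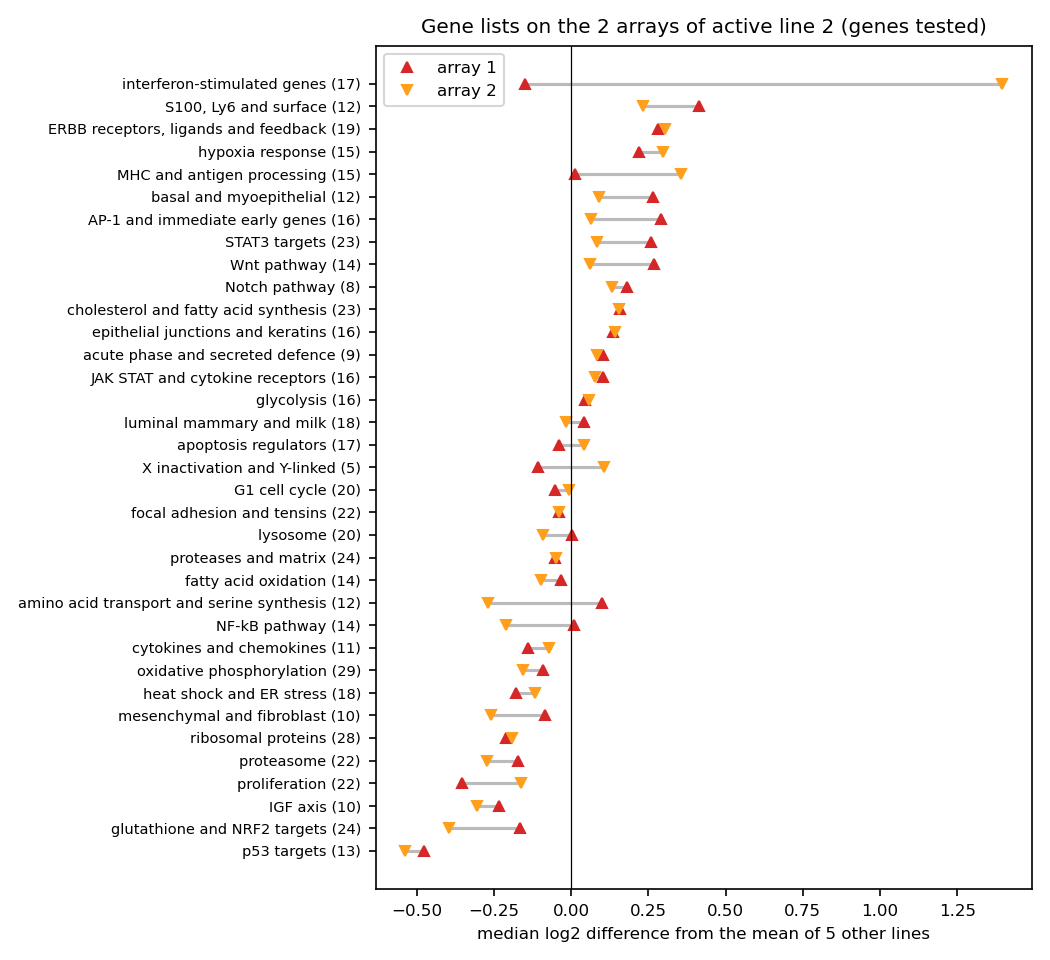
Median log2 difference from the mean of the 5 other lines (x axis) for 35 gene lists (y axis, tested genes in brackets), shown apart for array 1 and array 2 of active line 2. The interferon list is the one with the arrays farthest apart, at -0.15 and 1.39, and p53 targets lie lowest on both.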

How the data were processed

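The authors deposited raw bead intensity and a detection fraction per probe on each of 12 arrays, made with BeadStudio 3.1.7 per the submitters' processing notes, and log2 values, for which the notes name lumi. How the authors corrected and normalised the arrays before taking log2 is not stated in those notes. The intensities were corrected and normalised with neqc in limma 3.58.1 (R 4.3.3; offset 16, quantile, log2), with 1 minus the detection fraction as the detection p. Of 46632 probes 13038 were detected on both arrays of at least 1 line, and 10444 of these had 1 gene symbol (29976 on the whole array, 10 with several, 16646 with none). The brightest kept probe stood for a gene. Gene order came from RefSeq (GRCm38.p6), used for names and neighbours, since no build is stated for the array design. Tests were limma's moderated tests over 7929 genes with Benjamini-Hochberg adjustment at 0.05, checked on simulated data. The number of arrays limits the precision.

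The members and gene lists were chosen with earlier results of these data known. Named genes were Stat3 and Tns4, up to 15 genes in each direction past a test, up to 10 detected or undetected only in active line 2, up to 10 with the largest difference between its arrays, in each list up to 3 members by line-level p and any member past a test, and the ends of the longest stretches. Acta1, Ccnd1, Ccnd3, Cdkn2a, Cdkn2b, Dctn3, Esrp1, H2ac6, H2ac8, H2ac10, H2ac18, H2ac19, H2bc4, Ifit2, Krt8, Krt18, Mms22l, Mtap, Nav1, Parp12, Rab2a, Topors, Xpa and Zcchc7 were named outside that rule, after their values were seen. Array numbers did not pair the arrays: correlations of array differences between lines ran from -0.23 to 0.30, with 2 of 15 pairs above 0.1. Alternatives covered normalisation, background, offset, filter, probe choice, block, reference lines and left-out arrays.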

Additional observations from a re-analysis of the deposited data

Results flagged for a closer look

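Probes without a gene symbol were outside the comparisons by gene. Of 2594 such probes that passed the detection filter, 14 were higher in active line 2 than in every other line and 5 lower by the array-level test in limma. Between the 2 arrays of active line 2, 12 of them differed past the test.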

How the results depend on the processing

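No gene passed the line-level test of active line 2 under any setting run. The 74 genes apart from every line became 112 with the authors' deposited log2 values, 61 with the array number as a replicate block, and 36 to 83 with 1 array left out. The 74 genes that differed between the 2 arrays became 48 to 86 with 1 array left out, lowest without either array of wild-type line 3. Genes with both arrays outside the range of the other 10, 1199 in all, became 2332 against the wild-type lines only, 2835 against the other active lines only, and 1238 to 1999 with 1 array left out, which is partly built in, since fewer arrays make a narrower range. The median of the chromosome 4 stretch, 0.57, was 0.55 with median scaling, 0.46 with no background correction, 0.38 with the authors' values, and 0.56 to 0.62 with a line or array left out. With the authors' values the correlations were 0.967, 0.970 and 0.988 with wild-type lines 1, 2 and 3, and 0.982 and 0.957 with active lines 1 and 3, in the same order. Signs turned for Star (-0.033 with no filter on detection), Cdkn2a (-0.33 with the mean of its probes), Stat3 (0.15) and Tns4 (-1.32, both against the other active lines only). The cause of these changes was not tested. Over all settings and genes followed, 2360 log2 differences kept direction and call, 354 lost the call, 81 gained it and 4 turned. Of the differences between the arrays, 1191 kept it and 279 lost it. The stretch median's alternatives, and leaving out each array of active line 2 for the runs of neighbours, were added after seeing the data. Genes near background have the least certain differences.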
